A study of Mus musculus with 24 samples.

Results

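The acetylcholine receptors described here are the products of 8 genes of the deposited RNA count table, out of 34039 genes in all. They are the muscarinic receptor genes Chrm1, Chrm2, Chrm3, Chrm4 and Chrm5 and the nicotinic subunit genes Chrna4, Chrna7 and Chrnb2, chosen by name from the table, with no measured value in the choice. Each was followed through every cell type of the mouse amygdala and compared between DBA and BL6, inbred strains. The nuclei came from adult males of 10 to 16 weeks, with no other treatment or allele named, and the tissue of about 2 animals was pooled for each library. DBA and BL6 each had 2 single-nucleus RNA libraries and 2 single-nucleus ATAC libraries, the second assay counting open chromatin in peaks. RNA nuclei had been sorted to 75% neurons and 25% other nuclei with NeuN, a neuronal antibody, and ATAC nuclei on a DNA dye alone. The other 16 samples of the series, methylation libraries, were not analysed here.

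Acetylcholine reaches the amygdala mainly from neurons of the basal forebrain, and its receptors fall into a pair of families. Muscarinic receptors couple to G proteins: M1, M3 and M5 act through Gq and phospholipase C and raise excitability, while M2 and M4 act through Gi/o, lower cyclic AMP and open potassium channels, often at nerve terminals. Nicotinic receptors are ion channels of several subunits that acetylcholine opens directly; alpha4 and beta2 subunits (Chrna4 and Chrnb2) assemble together, and alpha7 (Chrna7) forms channels of its own that pass calcium.

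The start regions of 4 members are shown because the ATAC peaks that cover them are compared with the RNA further on: Chrm2 and Chrm3, whose promoter peaks were higher in cell types with more of their RNA, and Chrna7 and Chrm4, whose peaks were not. Each run is 300 bases, from 250 before to 50 after the annotated start, 5′ to 3′ on the gene's own strand, from RefSeq on GRCm38.p6 (mm10). They lie at chr6:36387834-36388133 on the plus strand (Chrm2), chr13:10360754-10361053 on the minus strand (Chrm3), chr7:63212477-63212776 on the minus strand (Chrna7) and chr2:91921939-91922238 on the plus strand (Chrm4). Capitals mark matches, on either strand, to the GC box, spelled GGGCGG, and to the box spelled CCAAT.
Chrm2: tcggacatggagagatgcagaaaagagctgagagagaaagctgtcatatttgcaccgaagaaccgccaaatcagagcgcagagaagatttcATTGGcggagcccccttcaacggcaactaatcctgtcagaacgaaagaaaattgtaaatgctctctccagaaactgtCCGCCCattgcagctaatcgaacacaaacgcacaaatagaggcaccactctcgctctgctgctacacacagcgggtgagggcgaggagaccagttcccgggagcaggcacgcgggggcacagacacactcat
Chrm3: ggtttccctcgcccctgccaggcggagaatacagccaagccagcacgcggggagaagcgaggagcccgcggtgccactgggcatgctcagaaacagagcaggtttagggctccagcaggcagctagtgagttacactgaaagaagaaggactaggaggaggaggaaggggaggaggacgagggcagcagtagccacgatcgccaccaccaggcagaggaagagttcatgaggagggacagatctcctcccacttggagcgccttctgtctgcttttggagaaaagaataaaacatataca
Chrna7: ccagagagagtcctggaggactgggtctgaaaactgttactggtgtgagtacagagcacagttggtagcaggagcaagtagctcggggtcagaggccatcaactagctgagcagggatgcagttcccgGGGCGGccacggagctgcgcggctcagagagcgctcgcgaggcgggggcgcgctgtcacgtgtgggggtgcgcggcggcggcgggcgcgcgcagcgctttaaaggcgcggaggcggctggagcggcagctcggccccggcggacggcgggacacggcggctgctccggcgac
Chrm4: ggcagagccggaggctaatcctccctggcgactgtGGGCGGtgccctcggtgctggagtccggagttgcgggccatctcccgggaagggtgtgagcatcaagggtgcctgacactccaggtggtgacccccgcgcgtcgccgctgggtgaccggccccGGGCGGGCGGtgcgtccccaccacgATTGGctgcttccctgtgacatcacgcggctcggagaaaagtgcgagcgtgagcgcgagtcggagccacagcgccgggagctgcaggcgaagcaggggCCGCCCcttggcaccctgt
Of 32851 promoters of this length, 35.7% held a GC box, 37.4% a CCAAT box and 13.6% the TATA box TATAAA, which none of the 7 member promoters in the table held. Chrm4 had 4 GC boxes, of which the pair at -92 and -88 from the start overlap, and a CCAAT box at -67. Chrm2 had a GC box at -82 and a CCAAT box at -159, Chrna7 a GC box at -122, and Chrm3 none of the 3 motifs. The runs held 16 CpG dinucleotides for Chrm2, 11 for Chrm3, 35 for Chrna7 and 30 for Chrm4, against a median of 7 over all promoters. A match is a description of these letters and no evidence of binding.

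Levels are given in CPM, counts scaled to the same total for every cell type and library, so they compare cell types and strains within a gene and not one gene with another. RNA libraries held 30693629 to 66304405 counts from 2867 to 8079 nuclei, and ATAC libraries 66535381 to 86927891 counts. Libraries are called 2 and 3 of each strain, as in the tables. Of 22 cell types named by the authors, 20 had at least 10 nuclei in all 4 RNA libraries and were ordered and tested, 5 of them excitatory, 8 inhibitory, 6 non-neuronal and 1 a mixed neuronal type. Excitatory nuclei were 19.99% and 32.3% of the DBA libraries and 27.3% and 20.4% of the BL6 libraries. In a lower sum over all nuclei, fewer cells of a type and less RNA per cell therefore cannot be told apart. Most type names went with their markers, with 2 exceptions that touch results below. NN-Endo-VLMC, named for endothelium and leptomeninges, had the endothelial genes Cldn5 and Flt1 at 0 in all 4 libraries, and instead 1500 ± 279 CPM of the neuronal transcription factor gene Foxp2 and 323 ± 15.7 CPM of the astrocyte gap junction gene Gja1 (SD, n = 4). Inh-Drd2, named for the dopamine receptor gene Drd2, had 23.2 and 145 CPM of it in DBA libraries 2 and 3, against 136 and 135 CPM in BL6 libraries 2 and 3.

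The Gq-coupled muscarinic genes differed in where they were read. Chrm1, the main postsynaptic muscarinic receptor of forebrain neurons, was read across neurons with a shallow order. It was highest in Inh-Drd2 at 50.6 ± 7.39 CPM, in Exc-Tafa1 at 46.7 ± 4.68 CPM and in Inh-Tshz1 at 45.6 ± 2.22 CPM (SD, n = 4 libraries). In Inh-Drd2 the 61.6 CPM of DBA library 2, the library in which Drd2 was low, stood above the 46.1 to 48.3 CPM of the other 3, and without that library Exc-Tafa1 came first. The lowest neuronal level was 8.86 ± 5.77 CPM in Inh-Lypd6b, within the range of the non-neuronal types, which lay between 6.40 and 11.2 CPM. None of the 19 pairs of neighbours in the order of 20 types was apart over the 4 libraries.

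Chrm3, the other abundant Gq-coupled receptor gene, had a steep order that crossed the neuronal classes. The type named NN-Endo-VLMC led it with 1162 and 552 CPM in the DBA libraries and 922 and 829 CPM in the BL6 libraries, from 10 to 35 nuclei a library. Since that type held leptomeningeal markers and Foxp2 but lacked the endothelial genes Cldn5 and Flt1, its place describes those nuclei only. With TMM scaling Exc-Abi3bp came first. Exc-Abi3bp had 961 and 679 CPM in DBA and 704 and 859 CPM in BL6, and no library of it reached as low as the next type. That was Inh-Htr3a, at 524 ± 42.8 CPM, followed by Exc-Ebf2 at 462 ± 45.4 CPM. The lower end of the neurons was held by Inh-Tshz1 at 88.9 ± 39.9 CPM and Inh-Drd2 at 73.1 ± 69.7 CPM, both inhibitory types in which Chrm1 was among its highest. Of the 19 neighbour pairs, 4 were apart for Chrm3.

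Chrm5, the third Gq-coupled receptor gene, known for its place on dopamine neurons of the midbrain, was barely read, with 59 counts over all nuclei and libraries. Exc-Abi3bp held 17 of them, 2 and 8 in the DBA libraries and 6 and 1 in the BL6 libraries. The first place in its order, NN-Endo-VLMC, rested on 1 count. At this depth no order of types can be read for Chrm5. Its gene also overlaps the apoptosis inhibitor gene Aven by 43479 bases on the opposite strand, and whether counting used strand is not given in the sources used here.

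Of the Gi/o-coupled genes, Chrm2, known as the autoreceptor of cholinergic terminals and from inhibitory neurons, was highest in Inh-Lypd6b at 183 ± 107 CPM. Its libraries there ran from 298 and 67.0 CPM in DBA to 246 and 122 CPM in BL6, so the spread within a strain was as wide as the distance to the types below. Inh-Tshz1, whose transcription factor genes Foxp2 and Tshz1 mark intercalated cells of the amygdala, followed at 109 ± 22.0 CPM. The excitatory type Exc-Tfap2c was next with 95.1 ± 44.3 CPM, and Inh-Sst had 93.3 ± 48.6 CPM. Exc-Strip2, an excitatory type that was not ordered because it had 1 and 77 nuclei in DBA and 75 and 3 in BL6, had 174 CPM in DBA library 3 and 182 CPM in BL6 library 2, the libraries with enough nuclei. The interneuron types Inh-Htr3a and Inh-Lamp5 stood low, at 13.6 ± 4.40 and 5.55 ± 4.46 CPM, and astrocytes were lowest at 3.32 ± 2.12 CPM. No neighbour pair was apart for Chrm2.

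Chrm4, the second Gi/o-coupled gene and known from striatal projection neurons, gave 56 counts in all. Inh-Drd2 led with 1.81 ± 1.68 CPM, which was 1 and 0 counts in the DBA libraries and 3 and 3 counts in the BL6 libraries. Exc-Tafa1 held the most counts of any type, 14. Among the 6 non-neuronal types it had 3 counts in all, so a level there was not detectable at this depth.

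Chrna7 was the nicotinic gene with the sharpest pattern. It was highest in a pair of interneuron types, Inh-Htr3a with 230 and 210 CPM in DBA and 233 and 338 CPM in BL6, and Inh-Lamp5 with 358 and 290 CPM in DBA and 110 and 133 CPM in BL6. All 8 of these values lay above every library of Exc-Tafa1, the next ordered type at 67.4 ± 23.8 CPM. The neuronal types below it ranged down to 26.2 ± 15.7 CPM in Exc-Tfap2c. Which interneuron type came first depended on the libraries: Inh-Lamp5 did without BL6 library 2 or without BL6 library 3.

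The partner subunits alpha4 and beta2 were read at low counts, 439 for Chrna4 and 2390 for Chrnb2. Chrnb2 was even across neurons, from 12.7 ± 1.16 CPM in Exc-Tafa1 to 18.1 ± 2.07 CPM in Inh-Sst, and between 1.41 and 10.3 CPM in non-neuronal types. Chrna4 had no neuronal excess. It was highest in oligodendrocyte precursors (NN-OPC), with 7.44 and 7.02 CPM in the DBA libraries and 11.1 and 9.33 CPM in the BL6 libraries, next to Inh-Lamp5 at 7.76 ± 4.59 CPM and Inh-Htr3a at 7.34 ± 1.29 CPM. Without BL6 library 3, Exc-Tfap2c, a type of 11 to 31 nuclei a library, came first in place of NN-OPC.

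**Figure D1:**
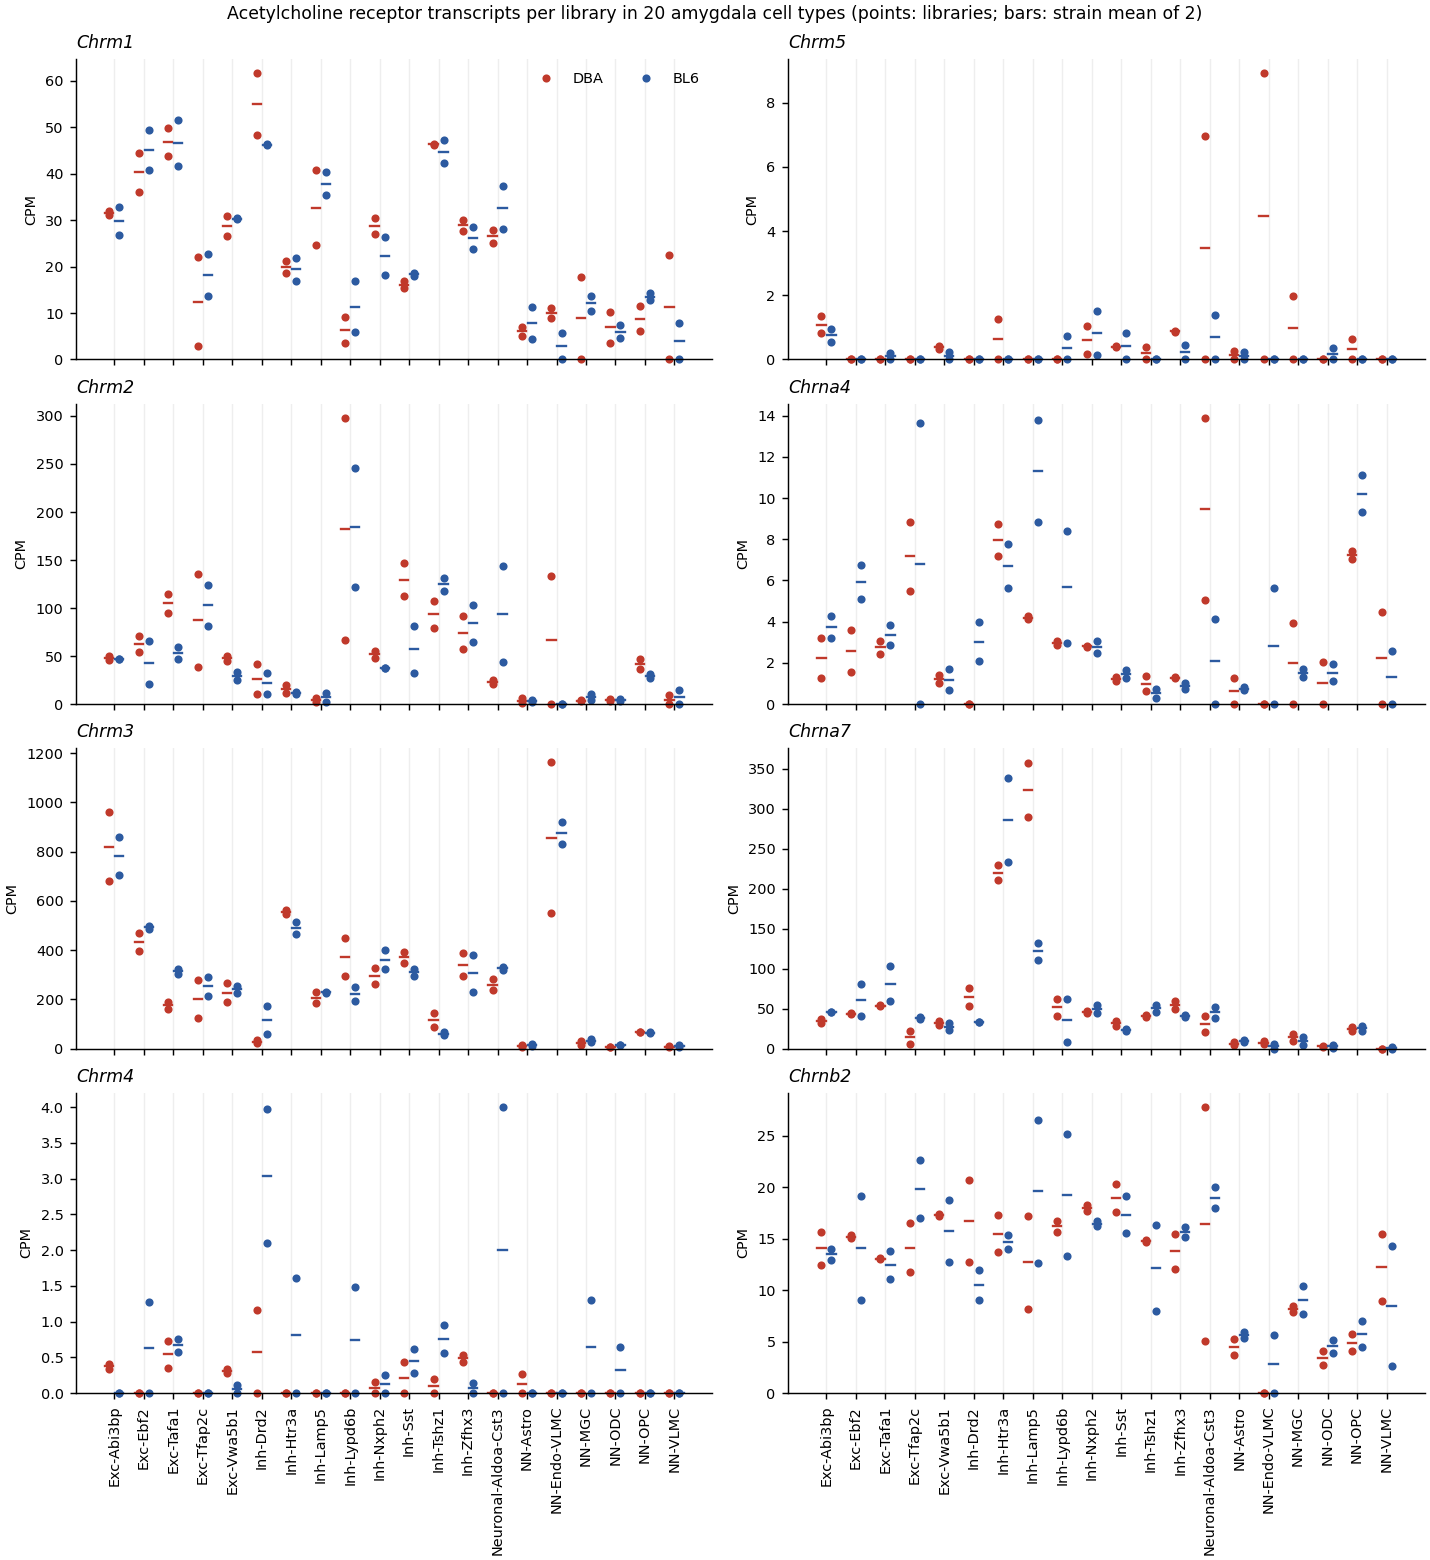
CPM of each receptor gene (vertical axes, each panel on its own scale) in 20 cell types, with 1 point per library, DBA left of BL6, and a bar at each strain's mean of 2 libraries. Chrm3 peaks in NN-Endo-VLMC and Exc-Abi3bp, Chrna7 in Inh-Htr3a and Inh-Lamp5, Chrm2 in Inh-Lypd6b with widely spread libraries, and Chrm4 and Chrm5 rest on 56 and 59 counts.

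Summed over classes, Chrm1 and Chrm3 were higher in excitatory than in inhibitory neurons. Chrm1 had 37.2 ± 1.36 CPM in excitatory and 30.01 ± 1.09 CPM in inhibitory neurons, and Chrm3 had 385 ± 29.1 CPM in excitatory and 269 ± 33.1 CPM in inhibitory neurons (SD, n = 4). For both genes all 4 excitatory sums lay above all 4 inhibitory sums, as for 9.39% of 22155 genes counted in both strains. The classes overlapped for the other 6 genes, among them Chrm2 with 58.7 ± 13.9 CPM in excitatory and 78.0 ± 17.2 CPM in inhibitory neurons, and Chrna7 with 49.0 ± 13.3 and 59.5 ± 6.53 CPM in those classes. These are descriptions, since the types had been named on the RNA of the same nuclei.

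Against non-neuronal nuclei, excitatory neurons were apart and higher for 6 members, Chrm1, Chrm2, Chrm3, Chrm4, Chrna7 and Chrnb2, and inhibitory neurons for 5, the same genes without Chrm4. The share of all genes that did so was 24.7% for excitatory and 25.0% for inhibitory neurons. The ratio within a library of excitatory to non-neuronal CPM was 8.45 to 12.2 for Chrm3, 4.76 to 5.93 for Chrm2, 3.53 to 5.61 for Chrna7 and 3.52 to 6.93 for Chrm1. Chrna4 had 2.58 ± 0.578 CPM in excitatory, 2.15 ± 0.155 CPM in inhibitory and 2.57 ± 0.659 CPM in non-neuronal nuclei.

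Oligodendrocyte precursors, the dividing cells of the oligodendrocyte lineage, had 35.5 ± 8.87 CPM of Chrm2, or 51.9% of the mean over the neuronal classes, 24.9 ± 3.31 CPM of Chrna7, or 45.9%, and for Chrna4 369%. The share of neuronal RNA that these nuclei also held was measured with 6 neuronal markers, of which the median was 11.96% of the neuronal level in NN-OPC and 10.5% to 17.8% over the 6 non-neuronal types. In NN-OPC the markers ranged from 4.71% for Rbfox3, a splicing factor gene, to 34.0% for Snap25, of synaptic vesicle fusion, and 75.7% for Gad1, of GABA synthesis. Chrm3 in NN-OPC was at 66.4 ± 2.28 CPM or 20.3%, Chrm1 at 33.2% and Chrnb2 at 35.6%. Of these members, Chrna4 lay above the highest marker, and Chrm1, Chrm2, Chrm3, Chrna7 and Chrnb2 lay within the range of the markers. The upper end of that range was Gad1 alone, with Gad2, also of GABA synthesis, at 10.5%. Chrm2, Chrna7 and Chrnb2 lay above every marker but Gad1, while Chrm1 and Chrm3 lay below Snap25. The part of neuronal RNA in these levels was not tested.

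The genes whose mean log2(CPM + 1) over the 20 types followed each receptor most closely were ranked by Pearson's r among 13378 genes. For Chrm1 these were Gm15810 (0.94), Ccsap (0.93) and Pde2a (0.92), and for Chrm2 Cdh18 (0.91), Gm49191 (0.90) and Arhgef15 (0.89). For Chrm3 they were Kcnb2 (0.93), a voltage-gated potassium channel gene, Impdh1 (0.91) and Gm45645 (0.89), and for Chrna7 Mir124a-1hg (0.93), Tbc1d30 (0.90) and Pla2g4e (0.89). Chrnb2 went with Edc4 (0.96), Mecr (0.95) and Gm14703 (0.95), and Chrna4 less closely with Zfp57 (0.77), Has2os (0.74) and Dscaml1 (0.74). Among the receptors themselves the closest pair was Chrm1 and Chrna7 (0.80), and no likeness is given for Chrm4 and Chrm5, whose counts are sparse. The types share libraries and depth, and neuronal and non-neuronal types enter each r together.

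Accessibility gave a second view of the same types. The ATAC table held 156 peaks that overlapped a member gene or lay within 2 kb of its ends, 84 at Chrm3, 23 at Chrna7, 22 at Chrm2, 12 at Chrm5, 5 at Chrm1, 4 at Chrna4 and 3 each at Chrm4 and Chrnb2. A peak covered the start region of 6 of the 7 members with a start region in the promoter table, not that of Chrm5, and Chrm1, which has none there, was not assessed. The start region given for Chrm5, chr2:112480768-112481067 on the minus strand, lies inside the gene, which runs up to 112536361. Accessibility at that far end was not compared with the RNA. Over 15 types, r between RNA and promoter peak on the log2(CPM + 1) scale was 0.88 for Chrm3, 0.85 for Chrm2 and 0.92 for Chrna4. It was 0.15 for Chrnb2, -0.01 for Chrna7 and -0.25 for Chrm4, the last over very few RNA counts. These values describe 15 types that share libraries and depth, and carry no test.

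At Chrna7 and Chrm4 the start was open where little RNA was read. The Chrna7 promoter peak at chr7:63211324-63212846 had 24.7 and 24.6 CPM in DBA and 22.4 and 22.8 CPM in BL6 in inhibitory neurons, and 30.6 and 28.7 CPM in DBA and 27.8 and 27.1 CPM in BL6 in non-neuronal nuclei. The Chrm4 promoter peak at chr2:91921462-91922314 had 22.2 and 20.4 CPM in DBA and 22.1 and 21.5 CPM in BL6 in excitatory neurons, where the RNA had 22 counts over all libraries. Non-neuronal ATAC nuclei were 67 and 135 in DBA and 79 and 167 in BL6, so their sums are shallow. For Chrm1 and Chrm5 the most open peaks were chr19:8661801-8662833, just outside Chrm1 with a median of 28.2 CPM over types, and chr2:112492212-112493900, which lies in Chrm5 and over the start of Aven, with a median of 28.2 CPM. Both were even, their highest type at 1.49 and 1.60 times the median.

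**Figure D2:**
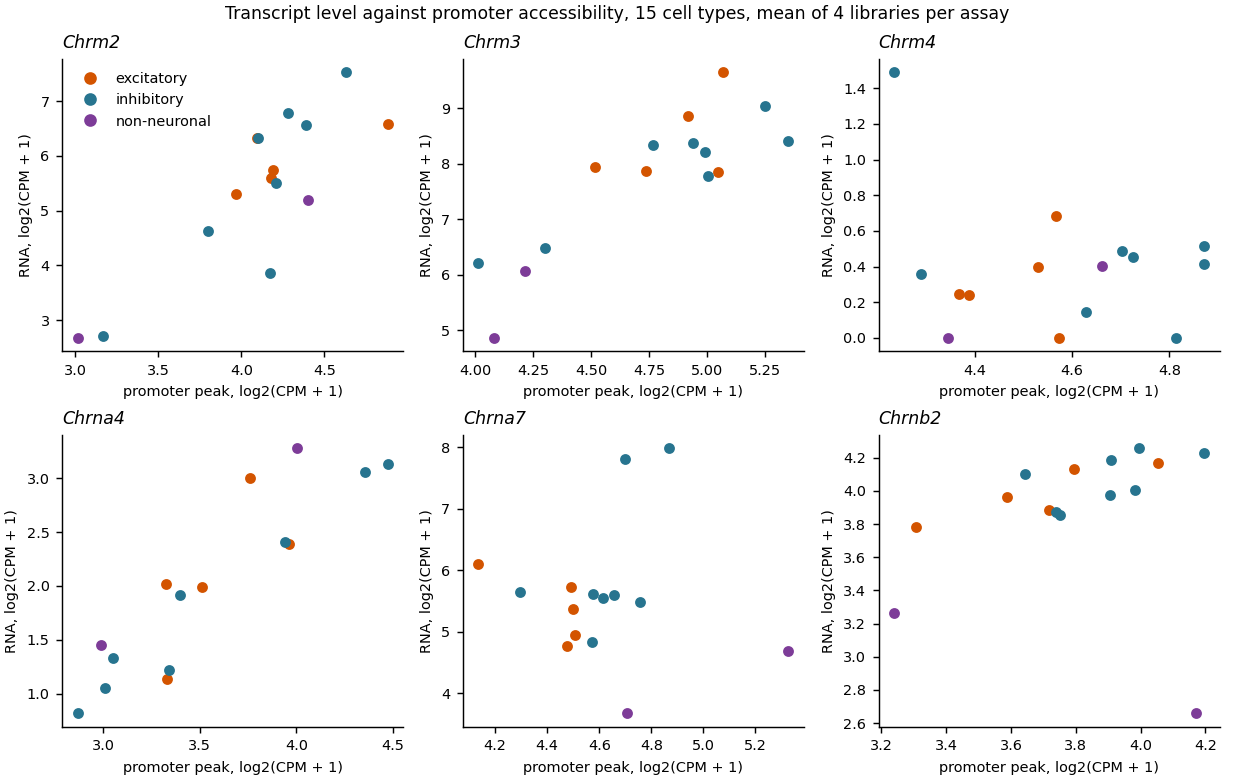
RNA of 6 receptor genes (vertical axes) against the ATAC peak over their start (horizontal axes), both as log2(CPM + 1) means of 4 libraries, with 1 point for each of 15 cell types, coloured by class. Points of Chrm2, Chrm3 and Chrna4 run upward (r 0.85, 0.88 and 0.92), while those of Chrna7, Chrnb2 and Chrm4 do not (r -0.01, 0.15 and -0.25).

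DBA and BL6 were then compared gene by gene. Differences are log2 fold changes, DBA minus BL6, from edgeR's quasi-likelihood test, and a gene was called when its p, adjusted by Benjamini-Hochberg over all genes of that test, was under 0.05. Nothing in the labels says that the 2 libraries of a strain come from separate litters or days, so p-values measure the spread between pools of about 2 animals. An exact permutation test of 2 against 2 cannot give less than 0.333. Strains are described as apart where both DBA libraries lay above or below both BL6 libraries. Of genes counted in both strains, 45.2% were apart in Exc-Tafa1, 42.7% in Exc-Vwa5b1 and 32.0% in Inh-Drd2. Of the members, 3 of 8, 3 of 8 and 6 of 7 were apart in those types. Being apart was thus common and is given only as a description. Over the 20 types 77 pairs of member and type passed the filter on low counts, and 7 were called, 5 higher and 2 lower in DBA. That is 9.09%, against 12.8% of all gene and type pairs tested, and against 5.78% when the fits held only genes counted in both strains, in which the members again gave 7 calls. The calls fell on Chrm2 (4 of 14 types tested), Chrm3 (2 of 19) and Chrna7 (1 of 15). Chrm1 (13 types), Chrnb2 (12) and Chrna4 (4) had none, and Chrm4 and Chrm5 passed the filter in no single type.

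Chrm2 was higher in DBA in excitatory neurons. In Exc-Tafa1 it had 94.6 and 115 CPM in DBA libraries 2 and 3, against 59.0 and 47.2 CPM in BL6 libraries 2 and 3. The lower DBA library was well above the higher BL6 library, and the log2 fold change was 1.02 ± 0.15 (SE, 95% interval 0.68 to 1.36, edgeR adjusted p = 0.000641). In Exc-Vwa5b1 it had 44.9 and 50.5 CPM in DBA and 25.1 and 33.1 CPM in BL6, again apart, with a change of 0.81 ± 0.15 (0.50 to 1.11, edgeR adjusted p = 7.62e-06). Of all genes tested, 18.6% were called in Exc-Tafa1 and 20.5% in Exc-Vwa5b1. Exc-Abi3bp, the third large excitatory type, showed no such gap, with 50.2 and 45.7 CPM in DBA and 47.2 and 47.2 CPM in BL6.

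Marker genes moved within the same types. In Exc-Vwa5b1 the summed excitatory markers were 200 and 192 CPM in DBA against 128 and 131 CPM in BL6, and Slc17a7, a vesicular glutamate transporter gene, was itself called with a log2 fold change of 1.42 (edgeR adjusted p = 3.35e-17). In Exc-Tafa1 the same sum was 357 and 409 CPM in DBA against 294 and 340 CPM in BL6. Oligodendrocyte markers, which these nuclei should lack, summed to 80.7 and 73.6 CPM in DBA and 92.8 and 102 CPM in BL6 in Exc-Tafa1. The part of these shifts in the Chrm2 values was not tested.

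In inhibitory neurons Chrm2 went both ways. Inh-Nxph2 had 47.7 and 55.6 CPM in DBA against 37.2 and 37.5 CPM in BL6, a change of 0.51 ± 0.14 (SE, 0.21 to 0.80, edgeR adjusted p = 0.0142, 17.6% of genes called). Inh-Tshz1 had 108 and 79.4 CPM in DBA against 131 and 118 CPM in BL6, a change of -0.39 ± 0.13 (-0.67 to -0.12, edgeR adjusted p = 0.0393, 19.4% of genes called). The strains were apart in both types, in Inh-Tshz1 by less than the distance between its DBA libraries. Both calls were lost without DBA library 3 (edgeR adjusted p = 0.267 in Inh-Nxph2 and 0.591 in Inh-Tshz1), without BL6 library 2 (0.108 and 0.119) and with DESeq2 (0.170 and 0.212). In Inh-Sst the 147 and 112 CPM of DBA and the 81.7 and 32.3 CPM of BL6 were apart but not called (log2 fold change 1.08, edgeR adjusted p = 0.405). NN-OPC, with 47.4 and 36.4 CPM in DBA and 26.7 and 31.5 CPM in BL6, was not called either (0.61, edgeR adjusted p = 0.0828). The largest fold of Chrm2, in the mixed neuronal type Neuronal-Aldoa-Cst3, was lower in DBA and not called (-1.95, -3.40 to -0.50, edgeR adjusted p = 0.233). That type had 37 and 41 nuclei in DBA and 217 and 147 in BL6.

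In the class sums the excitatory difference of Chrm2 held and the rest did not pass. Excitatory neurons had 68.5 and 72.8 CPM in DBA against 48.3 and 45.3 CPM in BL6, a change of 0.61 ± 0.10 (SE, 0.39 to 0.84, edgeR adjusted p = 0.000302, n = 2 libraries a strain), where 24.3% of genes were called, or 9.67% when the fit held only genes counted in both strains, and 1 of 6 members tested. Inhibitory neurons had 103 and 66.8 CPM in DBA and 74.9 and 67.2 CPM in BL6, with the strains overlapping and a change of 0.27 (-0.25 to 0.79, edgeR adjusted p = 0.502). In all nuclei Chrm2 had 70.6 and 61.6 CPM in DBA against 53.1 and 42.9 CPM in BL6, a change of 0.51 ± 0.14 (0.18 to 0.84, edgeR adjusted p = 0.0365), the only 1 of 8 members called, where 24.0% of all genes were. That call was lost without DBA library 2, DBA library 3 or BL6 library 3, and among genes counted in both strains, of which 4.88% were called (edgeR adjusted p = 0.114). No member was called in inhibitory neurons or in non-neuronal nuclei, where 23.9% and 20.0% of genes were, or 8.62% and 8.25% among genes counted in both strains. In all nuclei 25329 genes were tested, and 21161 when only genes counted in both strains were fitted. At an unadjusted p under 0.05 the counts were 0 and 1 by edgeR and 0 and 0 by DESeq2, which called none there.

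Chrm3 moved against Chrm2 in the types where both were called. In Exc-Tafa1 it had 190 and 162 CPM in DBA against 302 and 324 CPM in BL6, a change of -0.79 ± 0.12 (SE, -1.07 to -0.51, edgeR adjusted p = 0.000869). In Inh-Tshz1 it had 88.5 and 145 CPM in DBA against 54.7 and 67.4 CPM in BL6, a change of 1.02 ± 0.22 (0.50 to 1.53, edgeR adjusted p = 0.0131), with DBA library 3 far above the other 3. Without DBA library 3 the change was 0.61 (edgeR adjusted p = 0.00697), and with total counts alone it was not called. The strains were apart in both types, lower in DBA in Exc-Tafa1 and higher in DBA in Inh-Tshz1, while Chrm2 in each had the opposite sign. Inh-Tshz1 kept its markers in both strains, with 1974 and 1928 CPM of Foxp2 and Tshz1 together in DBA and 1985 and 1782 CPM in BL6, though its oligodendrocyte markers were at 72.4 and 58.5 CPM in DBA and 103 and 93.8 CPM in BL6. Over whole classes Chrm3 did not differ beyond its spread, with 408 and 344 CPM in DBA and 384 and 402 CPM in BL6 in excitatory neurons (-0.04, -0.28 to 0.20, edgeR adjusted p = 0.875).

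The largest fold of Chrm3 was not called. Inh-Drd2 had 22.1 and 34.5 CPM in DBA against 175 and 60.9 CPM in BL6, a change of -2.26 (-3.75 to -0.77, edgeR adjusted p = 0.165). It rests on 47 and 12 nuclei in DBA and 111 and 66 in BL6, and on the DBA library with low Drd2. Inh-Lypd6b (0.76, edgeR adjusted p = 0.110) was also apart by strain, with 448 and 294 CPM in DBA and 249 and 193 CPM in BL6.

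Chrna7 had the largest called change of the family, in 1 interneuron type. Inh-Lamp5 had 358 and 290 CPM in DBA against 110 and 133 CPM in BL6, a 2.75-fold difference and a log2 fold change of 1.46 ± 0.21 (SE, 1.01 to 1.90, edgeR adjusted p = 0.00059), in a type where 4.9% of genes were called. Both DBA libraries were above both BL6 libraries, from 29 and 51 nuclei in DBA and 90 and 46 in BL6. The defining gene Lamp5 overlapped, with 271 and 243 CPM in DBA and 230 and 265 CPM in BL6, and Htr3a, the marker of the other type high in Chrna7, was at 0 in all 4 libraries. Summed inhibitory markers were 1324 and 1519 CPM in DBA and 1208 and 1115 CPM in BL6, and oligodendrocyte markers 22.6 and 40.8 CPM in DBA and 88.6 and 88.3 CPM in BL6, and their part in the Chrna7 value was not tested.

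Elsewhere Chrna7 was not called. Inh-Htr3a had 230 and 210 CPM in DBA and 233 and 338 CPM in BL6 (-0.31, edgeR adjusted p = 0.410), with DBA below BL6. The excitatory sum had 42.8 and 39.3 CPM in DBA and 45.5 and 68.6 CPM in BL6, with BL6 library 3 far above the other 3, and a change of -0.44 (-0.83 to -0.05, edgeR adjusted p = 0.111). Without BL6 library 2 it was -0.72 and called (edgeR adjusted p = 2.74e-05), and without BL6 library 3 it was -0.13 (edgeR adjusted p = 0.613). Inhibitory neurons as a whole had 66.6 and 54.0 CPM in DBA and 54.0 and 63.6 CPM in BL6, overlapping, with a change of 0.06 (-0.21 to 0.34, edgeR adjusted p = 0.820).

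No difference was called for the remaining members. In all nuclei Chrm1 had 26.1 and 30.6 CPM in DBA and 30.3 and 24.9 CPM in BL6 (0.09, -0.27 to 0.44), and in excitatory neurons 36.7 and 36.9 CPM in DBA and 39.1 and 35.9 CPM in BL6 (-0.01, -0.26 to 0.24). Chrnb2 in all nuclei had 12.6 and 14.4 CPM in DBA and 13.8 and 11.3 CPM in BL6 (0.15, -0.25 to 0.55). Chrna4 had 1.90 and 2.47 CPM in DBA and 2.58 and 2.67 CPM in BL6 (-0.21, -0.79 to 0.37). For these genes edgeR's adjusted p was 0.799, 0.976, 0.668 and 0.679, in that order. Chrm4, with 9 and 11 counts in DBA and 21 and 15 in BL6 (-0.61, -1.60 to 0.38), and Chrm5, with 11 and 24 counts in DBA and 18 and 6 in BL6 (0.81, -0.14 to 1.77), were too shallow to tell.

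**Figure D3:**
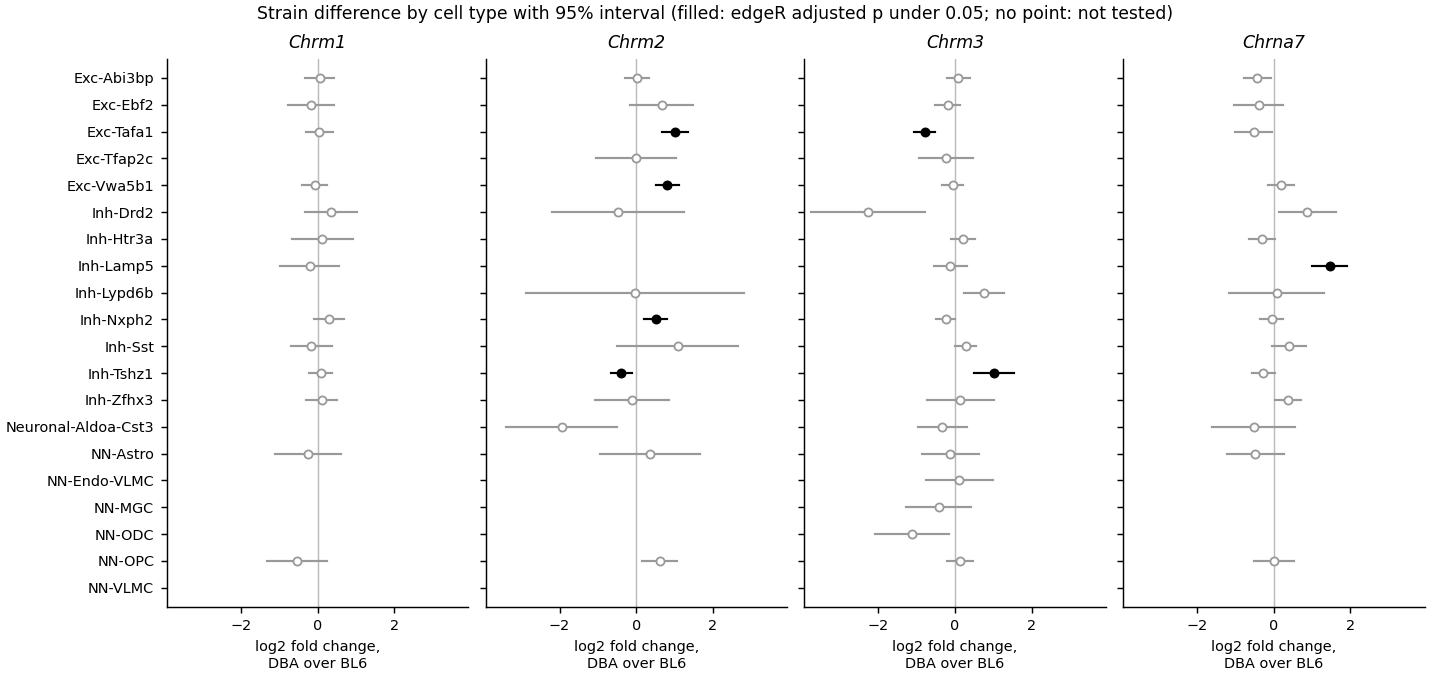
Log2 fold changes, DBA minus BL6, of Chrm1, Chrm2, Chrm3 and Chrna7 in each cell type that passed the filter, with 95% intervals from edgeR (filled points have an adjusted p under 0.05). Filled points are Chrm2 in 4 types, Chrm3 in 2 and Chrna7 in 1, and Chrm2 and Chrm3 lie on opposite sides of 0 in Exc-Tafa1 and Inh-Tshz1.

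Whether the strain difference itself differed between cells was tested as an interaction, with each library as a block. Between the classes none of 6 members was called, for excitatory against inhibitory neurons (0.146% of genes called), excitatory against non-neuronal (2.13%) or inhibitory against non-neuronal (1.45%), and at an unadjusted p under 0.05 edgeR gave 1, 1 and 0. The excitatory difference of Chrm2 is therefore not shown to differ from that of inhibitory neurons as a class. Between single types, in pairs picked after the strain tests of the same libraries were seen, some differences passed. Their adjusted p-values do not allow for that choice. The Chrm2 difference in Exc-Tafa1 exceeded that in Inh-Tshz1 by 1.44 ± 0.20 on the log2 scale (SE, 1.01 to 1.87, edgeR adjusted p = 0.00175, 1.78% of genes called). For Exc-Vwa5b1 against Inh-Tshz1 it was 1.28 ± 0.19 (edgeR adjusted p = 0.000384, 1.69% of genes called). For Chrm3 the difference in Inh-Nxph2 against Inh-Tshz1 was -1.23 ± 0.13 (edgeR adjusted p = 1.35e-05, 0.913% of genes called), while Exc-Tafa1 against Inh-Tshz1 was -1.77 ± 0.36 (edgeR adjusted p = 0.186) and Exc-Vwa5b1 against Inh-Tshz1 -1.13 ± 0.57 (edgeR adjusted p = 0.780), neither called. The Chrna7 difference in Inh-Lamp5 exceeded that in Inh-Htr3a by 1.75 ± 0.24 (1.26 to 2.24, edgeR adjusted p = 0.00076, 0.0879% of genes called), and without DBA library 2 it was 1.61 (edgeR adjusted p = 0.0582).

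The cholinergic pathway around the receptors was described with 6 gene lists, read against a median log2 fold change over all genes of 0.04 in all nuclei, excitatory and inhibitory neurons and 0.03 in non-neuronal nuclei. The counts of calls below stand beside the shares of all genes called, 24.0% in all nuclei, 24.3% in excitatory neurons, 23.9% in inhibitory neurons and 20.0% in non-neuronal nuclei, or 4.88%, 9.67%, 8.62% and 8.25% among genes counted in both strains. Of 8 genes that make, carry and break down acetylcholine, 7 were tested in all nuclei and 1 called, 4 were tested in excitatory neurons and 2 called, and 6 and 5 were tested in inhibitory neurons and non-neuronal nuclei and none called. Ache, acetylcholinesterase, was higher in excitatory neurons with 15.9 and 21.2 CPM in DBA against 12.5 and 13.96 CPM in BL6 (0.53, edgeR adjusted p = 0.0332). Bche, butyrylcholinesterase, was lower there with 12.5 and 17.9 CPM in DBA against 22.4 and 22.5 CPM in BL6 (-0.52, edgeR adjusted p = 0.0352). Colq, which anchors acetylcholinesterase outside the cell, had 5 and 5 counts in DBA against 36 and 12 in BL6 over all nuclei (-1.91, edgeR adjusted p = 0.0197). Each of these 3 calls was lost in 5 or 6 of 11 alternatives. Genes of the cholinergic neuron itself were read at low counts, with 227 counts of Chat, the synthetic enzyme, 408 of Slc5a7, the choline transporter, and 7 of Slc18a3, the vesicular transporter. In NN-OPC, singled out after its values were seen, Slc5a7 had 19.6 and 8.30 CPM in DBA against 45.7 and 30.3 CPM in BL6 and was called lower (-1.40, edgeR adjusted p = 0.00214).

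Of 12 other nicotinic subunit genes in the table, 10 were tested in all nuclei, 6 in excitatory neurons, 7 in inhibitory neurons and 2 in non-neuronal nuclei, and 1 was called higher and 1 lower in all nuclei and in excitatory neurons, 1 higher in inhibitory neurons and 0 in non-neuronal nuclei. Chrna3, the alpha3 subunit known from ganglia and the habenula, had 1 and 3 counts in excitatory neurons of DBA against 32 and 15 in BL6 (-3.28, edgeR adjusted p = 0.000293). Chrnb3, the beta3 subunit known from dopamine neurons, had 20 and 23 counts in inhibitory neurons of DBA against 5 and 1 in BL6 (2.93, edgeR adjusted p = 0.00071). The strains were apart for both, on few counts, and both calls held in all 11 alternatives. Of 8 chaperones and Ly6 proteins that act on nicotinic receptors, all tested in the 4 sums, none was called in any by edgeR.

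The Gq list of M1, M3 and M5 had 17 genes, of which 2 were called higher in all nuclei, 2 in inhibitory neurons, 3 in non-neuronal nuclei and 0 in excitatory neurons, and none lower. Gna14, a Gq-class alpha subunit, had 8.60 and 7.83 CPM in inhibitory neurons of DBA against 4.81 and 3.13 CPM in BL6 (1.00, edgeR adjusted p = 0.00517). Plcb4, a phospholipase C, had 169 and 179 CPM there in DBA against 144 and 133 CPM in BL6 (0.35, edgeR adjusted p = 0.00901). In non-neuronal nuclei Itpr2, an IP3 receptor, had 293 and 298 CPM in DBA against 239 and 255 CPM in BL6 (0.37, edgeR adjusted p = 0.0289). Plcb1, the phospholipase most tied to M1 in the forebrain, had 693 and 691 CPM in DBA against 586 and 594 CPM in BL6 in those nuclei (0.34, edgeR adjusted p = 0.0421). Itpr2 and Plcb1 lost their call in 6 and 5 of 11 alternatives and Plcb4 in 2, and Gna14 in none.

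The Gi/o list of M2 and M4 also had 17 genes, with 1 called higher in all nuclei, 1 in inhibitory neurons, 2 in non-neuronal nuclei, 0 in excitatory neurons and none lower. In non-neuronal nuclei Adcy8, a calcium-stimulated adenylyl cyclase, had 150 and 145 CPM in DBA against 90.4 and 105 CPM in BL6 (0.71, edgeR adjusted p = 0.000917). Kcnj3, a subunit of the potassium channel that M2 opens, had 106 and 122 CPM in DBA against 79.1 and 65.4 CPM in BL6 there (0.77, edgeR adjusted p = 0.00119). Rgs8, which shortens G protein signals, had 28.5 and 29.5 CPM in DBA against 21.1 and 19.8 CPM in BL6 in all nuclei (0.55, edgeR adjusted p = 0.0105), a call lost without DBA library 2 or without DBA library 3 (edgeR adjusted p = 0.0547 and 0.0926). No gene of this list was called in excitatory neurons, where Chrm2 itself was. Of 6 desensitisation genes in the table, Grk3, a receptor kinase, was called lower in all 4 sums, with 69.0 and 66.7 CPM in inhibitory neurons of DBA against 92.6 and 93.6 CPM in BL6 (-0.44, edgeR adjusted p = 0.00186). Grk5, another receptor kinase, had 45.1 and 43.5 CPM in excitatory neurons of DBA against 31.0 and 37.2 CPM in BL6 (0.41, edgeR adjusted p = 0.0272), and this call was lost in 4 alternatives. The medians of the lists lay between -0.38 and 0.17, the extremes coming from the acetylcholine genes in all nuclei and from 2 nicotinic subunits in non-neuronal nuclei.

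Few peaks at the member genes were called between strains. In excitatory neurons 2 of 156 peaks were called, 1.28% against 4.93% of all peaks, in inhibitory neurons 2 of 152, 1.32% against 3.47%, and in non-neuronal nuclei 0 of 13 by edgeR, against 0.192%, with 0 at an unadjusted p under 0.05. At an unadjusted p under 0.05 edgeR gave 19 of 156 excitatory and 12 of 152 inhibitory member peaks. Over all peaks it gave 38322 of 269657 and 33832 of 260830. The log2 fold change was above 0 for 59 of the 156 and 55 of the 152. All 4 called peaks were lower in DBA. The excitatory peak chr2:112521549-112522203, in Chrm5 and within Aven, had 1.21 and 0.848 CPM in DBA against 2.08 and 2.08 CPM in BL6 (-0.95, edgeR adjusted p = 0.00427). In the single type Exc-Vwa5b1, looked at after the RNA results, it had 0.939 and 0.865 CPM in DBA against 4.82 and 5.76 CPM in BL6 (-2.51, edgeR adjusted p = 9.68e-09, 3.14% of peaks called). Chrm5 RNA in that type was 1 and 3 counts in DBA and 2 and 0 in BL6, so no RNA difference could be read beside it. The other 3 were chr7:63129054-63129344 in Chrna7, with 0.475 and 0.575 CPM in DBA against 0.964 and 1.24 CPM in BL6 in excitatory neurons (-1.03, edgeR adjusted p = 0.0314), and in inhibitory neurons chr2:112478402-112478702 at the end of Chrm5 (-0.91, edgeR adjusted p = 0.0264) and chr6:36516550-36517839 in Chrm2 (-0.61, edgeR adjusted p = 0.0239). Each of the 4 lost its call in 3 or 4 of 9 alternatives.

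The promoter peak of Chrm2, chr6:36387586-36389800, was not called. It had 16.5 and 17.1 CPM in DBA and 16.3 and 15.9 CPM in BL6 in excitatory neurons, where the RNA was called higher in DBA. In Exc-Tafa1 it had 16.95 and 15.96 CPM in DBA and 15.9 and 15.4 CPM in BL6, and in Exc-Vwa5b1 15.3 and 15.7 CPM in DBA and 13.3 and 14.4 CPM in BL6. In each of these 3 both DBA libraries were above both BL6 libraries, the direction of the RNA, but none was called. Log2 fold changes were 0.11, 0.13 and 0.19 in that order (edgeR adjusted p = 0.746, 0.799 and 0.621). The excitatory sum holds the counts of both types, so these 3 are not separate results. The share of all peaks that were apart in this way was not counted. The Chrm3 promoter peak chr13:10358543-10361342 had 24.5 and 24.4 CPM in DBA and 27.0 and 25.2 CPM in BL6 there. No promoter peak of a member was called in the 3 class sums. Of 2 further peaks called in single types, chr6:36463814-36464411 in Chrm2 had 1.57 and 0.865 CPM in DBA against 2.51 and 3.39 CPM in BL6 in Exc-Vwa5b1 (-1.22, edgeR adjusted p = 0.0445), lower in the strain whose Chrm2 RNA was higher there. The peak chr7:63189462-63190283 in Chrna7 had 2.85 and 2.42 CPM in DBA against 1.07 and 0.874 CPM in BL6 in Inh-Tshz1 (1.49, edgeR adjusted p = 0.0234, 2.91% of peaks called), a type in which Chrna7 RNA was not called. No peak of Chrna7 was called in Inh-Lamp5, where 0.421% of peaks were.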

How the data were processed

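RNA values are whole-number counts of molecules per gene, which the authors added up within each combination of cell type and library before deposit. ATAC values are likewise summed counts, per peak, as deposited, and a companion table gives deposited counts of nuclei. The tools listed in the submitters' processing notes are Cell Ranger 6.0.2, Cell Ranger ATAC 2.0.0 and Seurat 4.0.5, with mm10 as the build. Filters on nuclei, doublet treatment, strand use, the gene annotation used for each strain and the peak caller are not given in the sources used here. In all nuclei 6073 of 25329 genes were called by strain, and 1033 of 21161 when the fit held only genes counted in both strains. The part of annotation in the strain differences of RNA and peaks was not tested. Because the values are sums, doublets were not sought and barcodes could not be compared between libraries. Each column was assigned to its strain through the library name beside it. Libraries carry the numbers 2 and 3 there and 1 and 2 in the titles, so which is which within a strain is not settled, and no result uses it.

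Cell types with 10 or more nuclei and at least 50000 RNA or 100000 ATAC counts in each of 4 columns were tested, 20 of 22 for RNA and 16 for ATAC, and counts were also summed over all nuclei and 3 classes. CPM used the column total. Tests used edgeR 4.0.16 (glmQLFit, robust, TMM, filterByExpr with a minimum count of 10, R 4.3.3) on 2 libraries a strain, adjusted by Benjamini-Hochberg over every feature in the test. Interactions used class or type sums with the library as a block. The strain test, in some RNA units and ATAC class sums, and the interaction of excitatory against inhibitory neurons were tried on simulated data at their main settings. The other steps were not. Peaks within 2 kb of a gene, and gene positions, used RefSeq on GRCm38.p6. Alternatives were RLE factors, total counts, DESeq2 1.42.0, fits without the filter, fits without 1 library at a time, a replicate block, genes with 10 or more counts in each strain and a minimum of 30 nuclei.

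All 8 members are named. The result of 1 marker gene is not reported here. Of each pathway list, genes called in any sum are named, at most 6, smallest p first. Named too are the 3 genes most like each member at a mean of 5 CPM or more, the most open peak per member and every called peak. The members, lists and tests were chosen with earlier results of these data known. Type pairs for interactions, single types for ATAC, a crossed block and the excitatory sum without Exc-Strip2 were added after seeing the data. Deviations of same-numbered libraries from their strain means correlated at -0.28 in all nuclei, -0.07 in excitatory neurons, -0.02 in inhibitory neurons and -0.16 in non-neuronal nuclei. Libraries of the same number thus did not vary together. These values cannot show whether libraries of different strains shared a batch, by number or crossed.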

Additional observations from a re-analysis of the deposited data

Results flagged for a closer look

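The strain difference, DBA minus BL6, of 3 receptor genes was called different in some pairs of cell types by the interaction test. The pairs of types were picked after the strain tests of the same libraries were seen. Adjusted p-values do not allow for that choice, so these differences only describe the picked pairs. For Chrm2 the difference was larger in Exc-Tafa1 than in Inh-Tshz1 by 1.44 on the log2 scale, in Exc-Vwa5b1 by 1.28 and in Inh-Nxph2 by 0.98, with Inh-Tshz1 the type in which Chrm2 was lower in DBA. The last of these was lost without DBA library 3 (0.57, edgeR adjusted p = 0.260) and without BL6 library 2 (0.86, edgeR adjusted p = 0.242). For Chrm3 the difference in Inh-Nxph2 minus that in Inh-Tshz1 was -1.23, while the same contrast was not called for Exc-Tafa1 (-1.77, edgeR adjusted p = 0.186) or Exc-Vwa5b1 (-1.13, edgeR adjusted p = 0.780). For Chrna7 the difference was larger in Inh-Lamp5 than in Inh-Htr3a by 1.75. It was 1.61 without DBA library 2, the 1 of 8 alternatives in which the call was lost.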

How the results depend on the processing

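Of the 7 called pairs of gene and type, 4 kept their call in all 11 alternatives. These were Chrm2 and Chrm3 in Exc-Tafa1, Chrm2 in Exc-Vwa5b1 and Chrna7 in Inh-Lamp5. Their log2 fold changes were 0.87 to 1.21, -0.91 to -0.66, 0.58 to 0.96 and 1.27 to 1.62, in that order. Chrm2 in Inh-Nxph2 and Chrm2 in Inh-Tshz1 each lost the call in 3 of 11 alternatives. Chrm2 in the excitatory sum kept its call in all 12 (0.57 to 0.66). Chrm3 in Inh-Tshz1 lost it with total counts alone (0.98, edgeR adjusted p = 0.105). Leaving out 1 library, which assumes that the lone library of a strain varies like the other strain, gave 9 to 12 calls over the types in place of 7, 0 to 1 in all nuclei, 1 to 2 in excitatory neurons, 0 to 1 in inhibitory neurons, 0 to 1 in non-neuronal nuclei, 0 to 1 for the interaction of excitatory against inhibitory, and 0 to 6 of the excitatory and 0 to 3 of the inhibitory peaks in place of 2 each. Those counts do not say that the same genes were called. With no filter on low counts there were 12 calls over the types, 2 in excitatory neurons, 1 in inhibitory neurons and 1 interaction of excitatory against inhibitory. Among genes counted in both strains all nuclei gave 0, and DESeq2 called 0 excitatory and 0 inhibitory peaks. The cause of these shifts was not tested. With the replicate block there were 9 calls over the types and 1, 1, 0 and 0 in all nuclei, excitatory, inhibitory and non-neuronal sums, and over all genes in all nuclei 5263 in place of 6073. With the numbers crossed, excitatory neurons gave 2 member calls and non-neuronal nuclei 1, with 7597 genes called in all nuclei.

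The 20 sign changes were all of values not called in the main fit. Not all of those were near 0, among them Chrm2 in inhibitory neurons (0.27) and Chrna4 in non-neuronal nuclei (-0.32). Chrm1 in excitatory neurons was -0.01, and 0.0030 with no filter and 9.3e-05 with DESeq2. With 1 library left out the ranges in all nuclei were -0.068 to 0.26 for Chrm1, -0.0096 to 0.30 for Chrm3, -0.11 to 0.039 for Chrna7 and -0.0047 to 0.33 for Chrnb2. In excitatory neurons they were -0.067 to 0.057 for Chrm1 and -0.19 to 0.10 for Chrm3, and in inhibitory neurons -0.082 to 0.57 for Chrm2 and -0.10 to 0.22 for Chrna7. In non-neuronal nuclei they were -0.65 to 0.21 for Chrm1, -0.74 to 0.013 for Chrna4, -0.24 to 0.14 for Chrna7 and -0.38 to 0.053 for Chrnb2. Depth limits Chrm4, Chrm5 and Chrna4, and small types such as Inh-Drd2, Inh-Lypd6b and NN-Endo-VLMC.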
